A study of Mus musculus with 4 samples.

Results

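The genes described here encode the integrins, the laminins, the type IV collagens and their closest basement membrane partners. They were chosen by gene name from the array files: every integrin alpha or beta name, every laminin chain, every Col4a name, and Nid1, Nid2, Hspg2, Dag1 and Cd151. The choice did not use measured values. It gave 54 gene names on 111 of 41174 probes, and 35 of the names could be tested among 15538 tested genes. Of the 54 names, 49 are chains or partners, of which 32 were tested. The other 5 (Col4a3bp, Itgb1bp1, Itgb1bp2, Itgb1bp3 and Itgb3bp) share only the start of the name and encode other proteins. Of these 5, 3 were tested, between -0.28 and 0.63 on the log2 scale, and none passed the test.

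Organoids grown for 1 week from mouse small intestinal crypts were compared with the freshly isolated crypts themselves, in 2 mice. Crypts are the epithelial pits of the gut wall in which its stem cells sit. Organoids are hollow epithelial bodies that grow from them in a gel. Crypts were freed with 2 mM EDTA and a 70 µm strainer. For culture, 500 crypts were set in 50 µl of Matrigel under medium with EGF at 10 to 50 ng/ml, R-spondin at 500 ng/ml and Noggin at 100 ng/ml. Strain, genotype, age and sex of the mice are not given in the sources used here. Organoid and crypt RNA of a mouse shared each Agilent array, and each mouse had 2 arrays with the dyes swapped, so 4 arrays give n = 2 mice. In the organoid channels 51.5% to 61.7% of all probes stood well above background, and in the crypt channels 53.7% to 67.2%. All 8 epithelial marker genes were well above background in every channel of both tissues. Precision is limited throughout by the small number of mice.

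The basement membrane is the thin protein sheet on which an epithelium stands. Laminins are cross-shaped trimers of an alpha, a beta and a gamma chain that form its first network, type IV collagen forms the second, and nidogens and perlecan tie them together. Cells hold on to it through integrins, pairs of an alpha and a beta chain: α3β1, α6β1 and α6β4 bind laminin, α1β1 and α2β1 bind collagen, and α6β4 is the core of the hemidesmosome. The α3 and β3 chains belong to the laminin of hemidesmosomes, and the α5 and γ1 chains join β1 or β2 in the laminins under most adult epithelia. Leukocytes carry their own integrins, built on the β2 and β7 chains. Matrigel is itself an extract of tumour basement membrane that contains laminin, type IV collagen, nidogen and perlecan proteins.

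Probe sequences are shown first, since a probe reports on its own stretch of the transcript only. Those of Lamb3, Lamb2 and Itgae carry the ratios given for these genes. Those of Itga3 and Itga6 are other tested probes, and the ratios given for these 2 genes come from brighter probes. Each printed sequence is a 60-base array probe, with no base in capitals. Each could be read through in at least 1 frame without a stop codon. Positions are in mm9. Lamb3 at chr1:195167088-195167147 on the plus strand and Lamb2 at chr9:108392189-108392248 on the plus strand are the probes of the 2 laminin genes with the highest ratios. Itga3 at chr11:94906314-94906373 on the minus strand had a low ratio. The other Itga3 probe printed, at chr11:94915485-94917062 on the minus strand, did not, and it spans 1578 bases of genome, so it crosses at least 1 intron. Itga6 at chr2:71694194-71694253 on the plus strand passed the test over probes. Itgae at chr11:72959105-72960563 on the plus strand is the lowest ratio among the members and also crosses an intron.
Lamb3: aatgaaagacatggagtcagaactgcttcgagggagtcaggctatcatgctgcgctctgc
Lamb2: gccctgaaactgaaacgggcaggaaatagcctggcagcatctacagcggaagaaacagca
Itga3, low ratio: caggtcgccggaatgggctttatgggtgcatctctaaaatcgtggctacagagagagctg
Itga3, ratio near 0: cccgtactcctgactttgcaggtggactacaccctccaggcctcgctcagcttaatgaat
Itga6: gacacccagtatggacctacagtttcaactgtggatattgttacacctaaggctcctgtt
Itgae: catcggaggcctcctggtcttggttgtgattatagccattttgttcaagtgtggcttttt

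Each ratio is organoid over crypt on the log2 scale, given as the mean of the 2 mice with its SD (n = 2), and log2 intensities for levels. A gene passed the test, and is said to have risen or fallen, at a Benjamini-Hochberg adjusted p under 0.05 by limma over all 15538 genes. By that rule 6 of the 35 tested members were called, where 10.9% of all genes tested were. Laminin genes Lamb3, Lamb2, Lamc1 and Lama5 rose, and the integrin genes Itga3 and Itgae fell. The background was 5.43% for higher calls and 5.49% for lower calls. The median over the 35 was 0.03, beside 0.02 over all genes tested, and 22 of the 35 had the same sign on all 4 arrays, beside 47.1% of all genes. Before adjustment, 15 of the 35 had a p under 0.05, beside 27.6% of all genes.

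**Figure D1:**
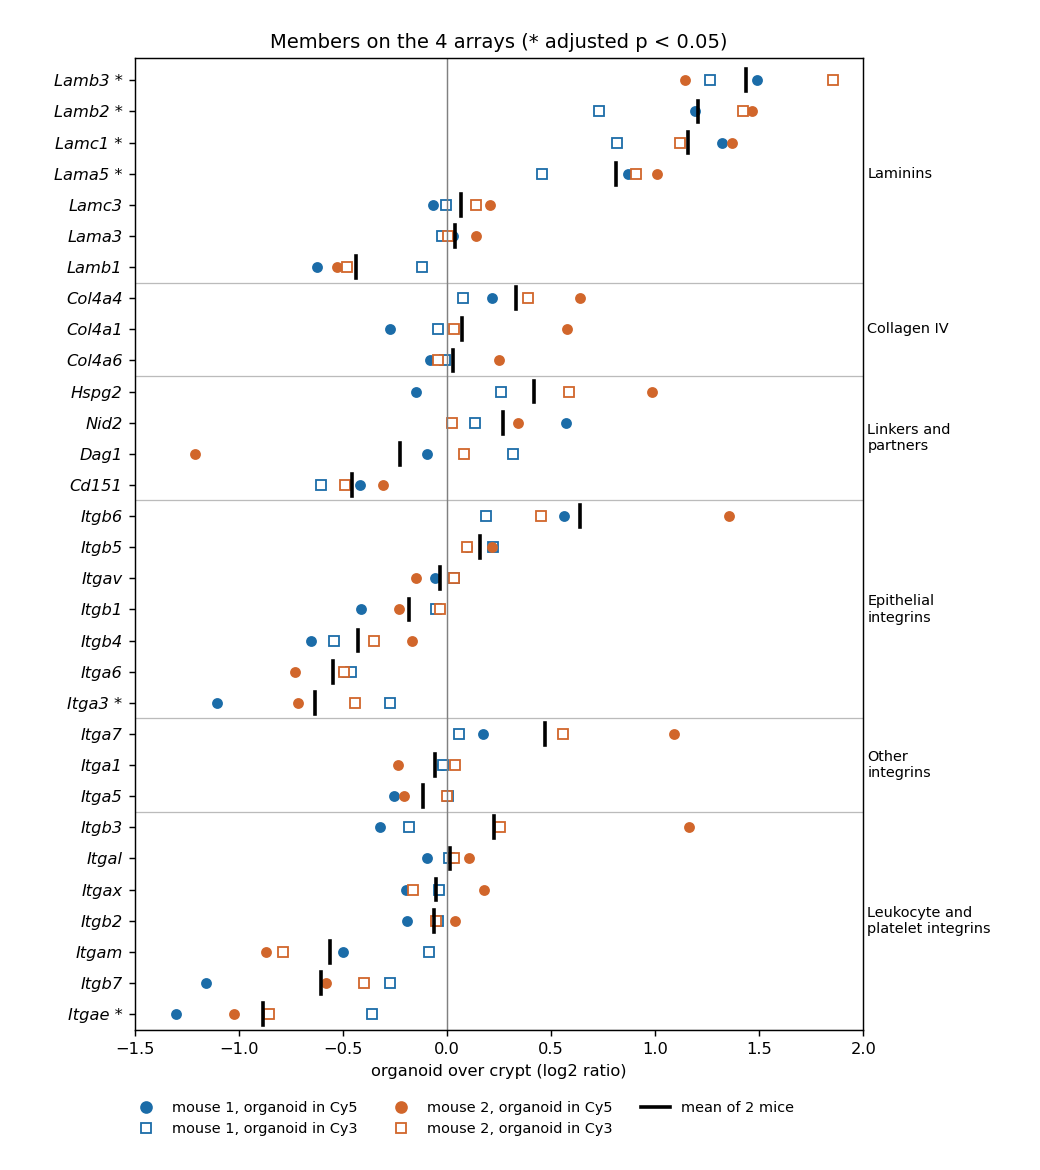
Organoid over crypt ratio (x axis, log2) of 31 tested chains and partners, grouped by role, on each of the 4 arrays (circles: organoid in Cy5, squares: organoid in Cy3, colours: the 2 mice), with the mean of the mice as a bar. The 4 laminin genes that passed the test lie right of 0 on every array, from 0.45 to 1.85, and Itga3 and Itgae lie left of 0 on every array.

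Among laminin chains, 4 of 8 tested genes rose and none fell (50% called, beside 10.9% of all genes). The median over the 8 was 0.74 (0.56 in mouse 1 and 0.92 in mouse 2). The chains that rose were β3 (Lamb3), β2 (Lamb2), γ1 (Lamc1) and α5 (Lama5). The laminin median stayed above the median of all genes under each alternative processing, by 0.56 to 1.05, and it was 0.55 above it in mouse 1 alone. Of the 11 laminin chains on the array, Lama1, Lama2 and Lama4 were not well above background in enough channels to be tested. The α1 chain is typical of embryonic, the α2 chain of muscle and the α4 chain of vascular basement membranes.

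Lamb3, the β3 chain of the hemidesmosomal laminin, had log2 intensities of 10.64 and 10.35 in organoids of mouse 1 and mouse 2, against 9.26 and 8.85 in their crypts. Both organoid values lay above both crypt values. Its ratios were 1.49 and 1.26 on the arrays of mouse 1 and 1.14 and 1.85 on those of mouse 2, each pair with the organoid in Cy5 and then in Cy3. The mean was 1.44 ± 0.09, 2.71-fold higher in organoids (adjusted p = 0.00546), the largest ratio among the members.

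Lamb2, the β2 chain, had log2 intensities of 9.78 and 9.54 in organoids, against 8.81 and 8.09 in crypts of mouse 1 and mouse 2. The crypts of the 2 mice differed more than their organoids did, and the tissues did not overlap. The ratios were 1.19 and 0.73 in mouse 1 and 1.47 and 1.42 in mouse 2, in the same dye order, with a mean of 1.20 ± 0.34 (2.30-fold higher in organoids, adjusted p = 0.0156).

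Lamc1 encodes γ1, the gamma chain of most laminin trimers, and its probe lies at chr1:155066155-155066213 on the minus strand. Its log2 intensity was 10.22 and 10.06 in organoids, against 9.15 and 8.82 in crypts. On the 4 arrays the ratios were 1.32 and 0.82 in mouse 1 and 1.37 and 1.12 in mouse 2. Lamc1 was thus 2.23-fold higher in organoids (1.16 ± 0.13, adjusted p = 0.00977), with every array on the same side.

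Lama5, the alpha chain of the adult epithelial laminins, had log2 intensities of 9.30 and 9.42 in organoids, against 8.64 and 8.46 in crypts. Ratios were 0.87 and 0.45 in mouse 1 and 1.01 and 0.91 in mouse 2, a mean of 0.81 ± 0.21 (1.75-fold higher in organoids, adjusted p = 0.0293). The files place only 15 of the 60 probe bases, at chr2:179911062-179911076 on the minus strand. All 4 calls were lost when each array was centred on its median without loess, with adjusted p from 0.0591 for Lamb3 to 0.238 for Lama5. Lamb2 and Lama5 also lost theirs without the filter on dim probes (adjusted p 0.0698 and 0.0740) and with the organoid in Cy3 alone (adjusted p 0.0578 and 0.0919), and were at 1.83 and 1.31 with scanner-derived ratios.

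**Figure D2:**
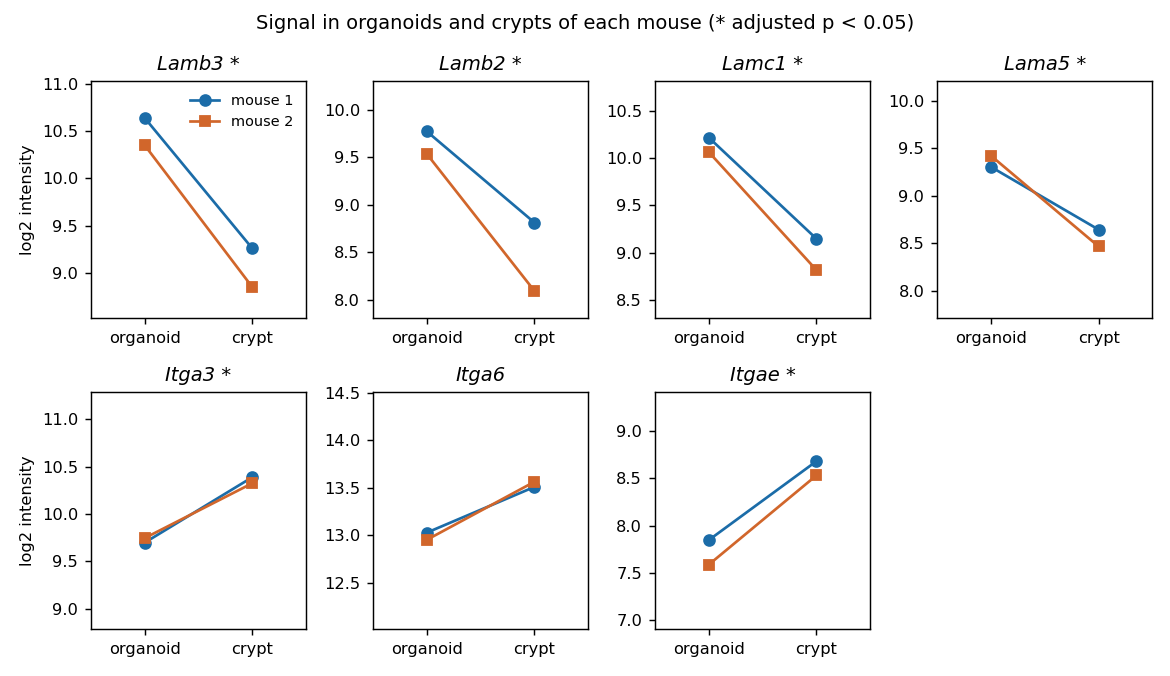
Log2 intensity (y axis, the same span in every panel) in organoids (left) and crypts (right) of mouse 1 and mouse 2 for the 6 members that passed the test (marked *) and for Itga6, which did not. Lines join the tissues of a mouse; in both mice the organoid point lies above the crypt point in the 4 laminin panels and under it in the 3 integrin panels.

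The other laminin chains did not pass the test. Lama3, the α3 partner of β3, was at 0.04 ± 0.05, with -0.02 to 0.14 on the 4 arrays, and its second probe, well above background in 1 of 4 organoid channels, was at -0.37. The sign of Lama3 changed under 5 alternatives.

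Lamb1, the β1 chain that shares its place in the trimer with β2, was the 1 laminin gene with a negative ratio of any size. Its log2 intensity was 7.39 and 7.40 in organoids, against 7.77 and 7.91 in crypts, and it was well above background in 1 of 4 organoid channels and all 4 crypt channels. The ratio was -0.44 ± 0.09 (adjusted p = 0.103), with -0.63 and -0.12 on the arrays of mouse 1 and -0.53 and -0.48 on those of mouse 2. With scanner-derived ratios it was -1.88 (adjusted p = 0.0188) and from the authors' deposited matrix -1.89 (adjusted p = 0.0179), so its size and its call depend on which ratios are used. Lamc3, the γ3 chain, was at 0.07 ± 0.15.

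The promoters of the 4 laminin genes that rose were read, as 250 bases before to 50 after the RefSeq start, in GRCm38.p6. Shared control of these genes was not tested. An entry was given for 3 of the 4, and not for Lamc1. The letters GGGCGG, searched on both strands, are the core of the GC box that Sp1-family factors bind. They are in capitals, 4 times in Lama5 (CCGCCC where on the other strand), and were found in neither Lamb2 nor Lamb3. Of 32851 mouse promoters of this length, 35.7% hold the letters. GC content was 72.7% for Lama5, 44% for Lamb2 and 59.3% for Lamb3, beside a median of 52.7%, so the 3 promoters share neither the letters nor their composition. The windows are chr2:180225810-180226109 on the minus strand, chr9:108479612-108479911 on the plus strand and chr1:193301744-193302043 on the plus strand, the first of 2 RefSeq entries for Lamb3.
Lama5: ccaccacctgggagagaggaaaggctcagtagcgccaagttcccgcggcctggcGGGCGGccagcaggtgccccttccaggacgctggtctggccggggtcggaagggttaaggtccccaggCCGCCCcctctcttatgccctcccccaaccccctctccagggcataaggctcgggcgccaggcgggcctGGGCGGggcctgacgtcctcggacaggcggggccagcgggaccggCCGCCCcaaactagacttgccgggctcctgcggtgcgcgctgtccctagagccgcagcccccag
Lamb2: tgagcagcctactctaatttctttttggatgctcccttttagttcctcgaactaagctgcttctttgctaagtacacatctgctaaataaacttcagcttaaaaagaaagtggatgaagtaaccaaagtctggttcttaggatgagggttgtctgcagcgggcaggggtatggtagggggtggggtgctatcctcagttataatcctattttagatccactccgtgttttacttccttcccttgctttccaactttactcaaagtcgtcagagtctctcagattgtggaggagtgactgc
Lamb3: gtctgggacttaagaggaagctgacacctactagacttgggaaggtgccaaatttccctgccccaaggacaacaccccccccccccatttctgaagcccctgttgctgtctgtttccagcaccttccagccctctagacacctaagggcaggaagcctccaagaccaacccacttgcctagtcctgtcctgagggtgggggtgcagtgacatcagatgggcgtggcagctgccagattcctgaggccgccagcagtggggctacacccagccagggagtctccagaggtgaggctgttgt

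The collagen and linker genes of the basement membrane gave no call. Of the 6 type IV collagen chains, 3 were tested: Col4a4 was at 0.33 ± 0.26, Col4a1 at 0.07 ± 0.33 and Col4a6 at 0.03 ± 0.11, with none at an unadjusted p under 0.05. Col4a1 encodes the α1 chain of the common collagen IV trimer, and its mice were on opposite sides of 0 (-0.16 and 0.30). Its arrays gave -0.27 and -0.05 in mouse 1 and 0.58 and 0.03 in mouse 2. Col4a2, its partner, was well above background in 2 of 4 organoid channels and no crypt channel, and was not tested. Nid1, the main nidogen, was above background in no channel of either tissue. Nid2 was at 0.27 ± 0.12, with 0.57 and 0.13 on the arrays of mouse 1 and 0.34 and 0.02 on those of mouse 2 (adjusted p = 0.276).

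Hspg2, which encodes perlecan, differed between the mice. Its log2 intensity was 10.40 and 10.69 in organoids, against 10.34 and 9.90 in crypts, so the ratio was 0.05 in mouse 1 and 0.78 in mouse 2 (0.42 ± 0.52, adjusted p = 0.267). Dag1, which encodes dystroglycan, a laminin receptor that is no integrin, was at 0.11 in mouse 1 and -0.57 in mouse 2 (-0.23 ± 0.48, adjusted p = 0.527). Its arrays gave -0.10 and 0.32 in mouse 1 and -1.21 and 0.08 in mouse 2, so 1 array lay far under the other 3. A second Dag1 probe gave 0.02 in mouse 1 and -0.68 in mouse 2. Neither gene differed beyond the spread between the mice.

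Among the integrins, none of 17 tested chains rose and 2 fell, so 11.8% were called, beside 10.9% of all genes. The median was -0.06, and 7 had an unadjusted p under 0.05, beside 27.6% of all genes. Of the 9 epithelial chains listed, 7 were tested, 1 fell and none rose, and the median was -0.18 (-0.23 in mouse 1 and -0.13 in mouse 2). That median was 0.02 with arrays centred on their medians, where the median of all genes was 0.17, so it lay 0.15 under all genes there and 0.21 under them as reported. Itga2, the α2 chain of the collagen receptor, was well above background in at most 3 of 4 channels of each tissue, and Itgb8 in none, and neither was tested. Of 8 epithelial marker genes 1 rose and 4 fell (62.5% called, beside 10.9% of all genes), with a median of -0.68. Their summed signal was 439165 and 442312 in organoids, against 641356 and 580448 in crypts on the linear scale. Krt18 rose (1.26 ± 0.36), and Vil1 fell most (-1.56 ± 0.13). All 4 that fell lost their calls with median centring, where Vil1 was at -1.09, Krt8 at -0.36, Krt19 at -0.25 and Cldn7 at -0.18. Vil1 lost its call under 1 of 11 alternatives in all, Krt18 under 2, Krt8 under 3, and Krt19 and Cldn7 under 5 each. The part of these markers in the integrin ratios was not tested. The best Itga2 probe had ratios of 0.16 in mouse 1 and -0.08 in mouse 2.

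Itga3, the alpha chain of the laminin receptor α3β1, had log2 intensities of 9.70 and 9.75 in organoids, against 10.39 and 10.32 in crypts. Ratios were -1.11 and -0.27 in mouse 1 and -0.72 and -0.44 in mouse 2, with a mean of -0.63 ± 0.08 (1.55-fold lower in organoids, adjusted p = 0.0426). The arrays with the organoid in Cy5 gave the lower value in each mouse. The printed low probe was at -0.77 ± 0.10 (adjusted p over all tested probes 0.0282) and the intron-crossing probe at -0.01 ± 0.06. The call stood near the threshold: adjusted p was 0.0562 with mouse as a block, 0.0677 without the filter on dim probes, 0.0796 with the deposited matrix, 0.0801 with the mean over probes, 0.0881 with scanner-derived ratios, 0.196 with the organoid in Cy3 alone (ratio -0.36) and 0.739 with median centring.

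Itga6, the alpha chain of α6β1 and α6β4, did not pass the test on its brightest probe. Log2 intensities were 13.03 and 12.95 in organoids, against 13.51 and 13.56 in crypts, and the arrays gave -0.50 and -0.46 in mouse 1 and -0.73 and -0.50 in mouse 2. The mean was -0.55 ± 0.09 (adjusted p = 0.0629). In a fit over all 21923 tested probes, of which 9.26% were called, the probe printed for Itga6 was called at -0.77 ± 0.10 (adjusted p = 0.0283). The third probe had 0.09 in mouse 1 and -1.22 in mouse 2. The gene's brightest probe itself was called without background subtraction (adjusted p = 0.0497) and with mouse as a block (adjusted p = 0.0405), and in all under 3 of 11 alternatives. With median centring it was at -0.23 (adjusted p = 0.935), and adjusted p was 0.0841 without the filter on dim probes, 0.0866 with the mean over probes and 0.124 with the deposited matrix.

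Itgb4, the β4 chain of the hemidesmosome, had log2 intensities of 12.72 and 12.87 in organoids, against 13.32 and 13.13 in crypts. Ratios were -0.66 and -0.55 in mouse 1 and -0.17 and -0.35 in mouse 2 (-0.43 ± 0.24, adjusted p = 0.139). A probe that shares 50 of its bases gave -0.50 ± 0.23, and the third, elsewhere in the gene, gave -0.18 ± 0.27. Itgb1, the β1 chain common to many epithelial integrins, was at -0.18 ± 0.07, with -0.41 and -0.05 in mouse 1 and -0.23 and -0.04 in mouse 2 (adjusted p = 0.436). Its second probe was at 0.01, and with median centring Itgb1 was at 0.02, so its direction is not settled.

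The αv integrins, which bind fibronectin and vitronectin and activate TGF-beta, showed no call. Itgav, the αv chain, was at -0.03 ± 0.03, from -0.15 to 0.03 on the 4 arrays, Itgb5 at 0.16 ± 0.00 and Itgb6 at 0.64 ± 0.37 (adjusted p = 0.0830). Itgb6, the β6 chain of epithelia, had 0.37 in mouse 1 and 0.90 in mouse 2, and its second probe was at -0.05 ± 0.22. Cd151, a tetraspanin that binds the laminin-binding integrins at the cell surface, was at -0.46 ± 0.08. Its arrays lay between -0.61 and -0.31, all under 0, with log2 intensities of 11.80 and 11.86 in organoids, against 12.31 and 12.26 in crypts (adjusted p = 0.0933).

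**Figure D3:**
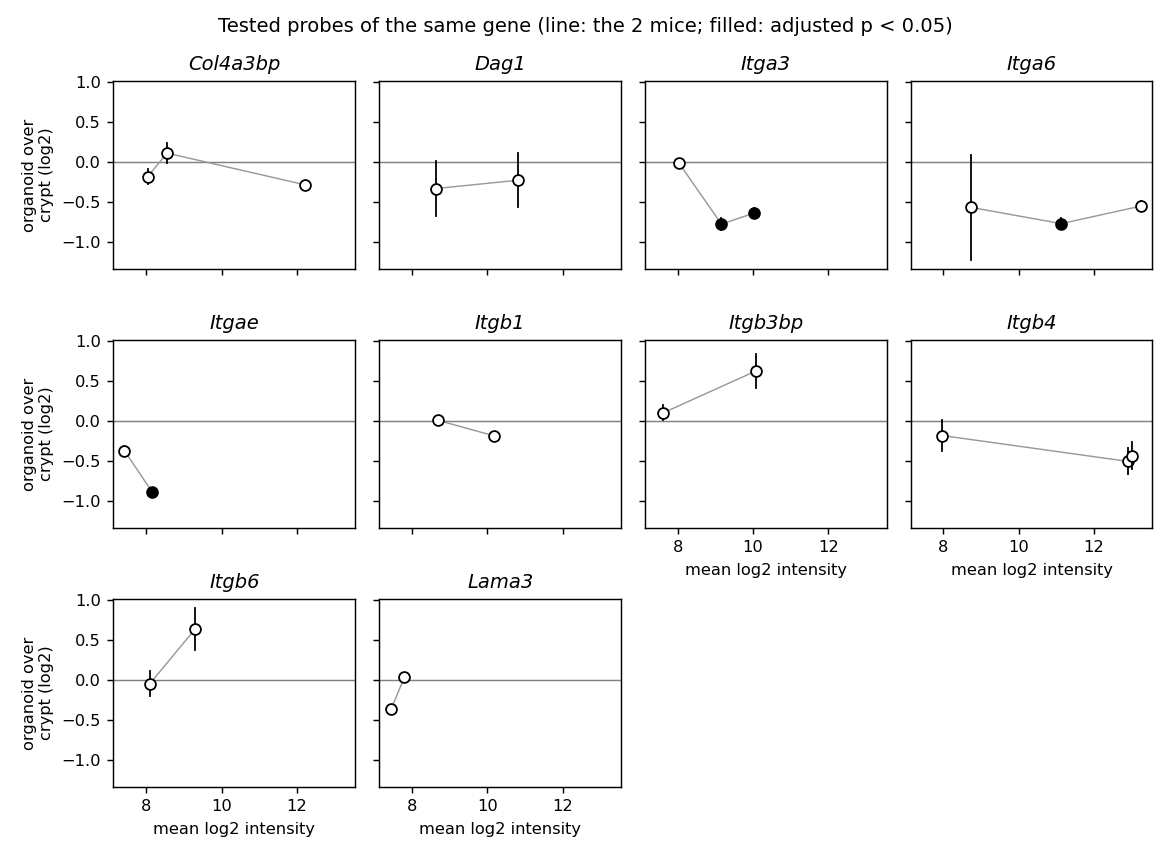
Organoid over crypt ratio (y axis, log2) of every tested probe of 10 members with more than 1, against the probe's mean log2 intensity (x axis); vertical lines run between the 2 mice and filled points passed the test over all probes, and the dimmer Itgae probe is at its measured value. Probes of Itga3 and Itgb6 differ within the gene, the dimmest at -0.01 and -0.05 and the brightest at -0.63 and 0.64, while the 3 Itga6 probes lie between -0.77 and -0.55.

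Different probes of a gene did not always give the same ratio. The brighter of 2 Itgb6 probes lies at chr2:60436536-60436595 and the dimmer, at -0.05, spans chr2:60438632-60443247, and it was not tested whether they report different transcripts. In Itga3 the brighter pair lay at or under -0.63 and the dimmest was at -0.01. In Itgae the brighter probe was at -0.89. The dimmer, not well above background in any organoid channel, had a bound of 1.24-fold lower in organoids as a mean over the mice. On the log2 scale that bound was 0.43 in mouse 1 and 0.20 in mouse 2. Its measured log2 intensities were 7.24 in organoids and 7.61 in crypts. It did not pass the test (adjusted p over all tested probes 0.156), so the probes are not ranked.

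Of the leukocyte and platelet integrins, 7 of 10 listed chains were tested. Of these 1 fell and none rose (14.3%, beside 10.9% of all genes called), and the median was -0.06 (-0.25 in mouse 1 and -0.01 in mouse 2). Itgae encodes αE, known as CD103, which pairs with β7 on the lymphocytes that sit between epithelial cells and binds E-cadherin on the epithelium. Its log2 intensity was 7.85 and 7.59 in organoids, against 8.68 and 8.53 in crypts, and all 8 channels were well above background. Ratios were -1.30 and -0.36 in mouse 1 and -1.03 and -0.86 in mouse 2. The mean was -0.89 ± 0.08, 1.85-fold lower in organoids (adjusted p = 0.0181), and it was -1.84 with scanner-derived ratios and -1.87 with the deposited matrix. The call was lost with median centring (adjusted p = 0.381) and with the organoid in Cy3 alone (adjusted p = 0.125).

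Itgb7, the β7 partner of αE, had log2 intensities of 7.87 and 7.97 in organoids, against 8.58 and 8.46 in crypts. Its ratios were -1.16 and -0.27 in mouse 1 and -0.58 and -0.40 in mouse 2 (-0.60 ± 0.16, adjusted p = 0.0556), so it did not pass the test although every array was under 0. It was called under 2 of 11 alternatives, and was at -1.37 with the deposited matrix (adjusted p = 0.0707) and -0.34 with the organoid in Cy3 alone (adjusted p = 0.208). Itga4, the α4 chain that pairs with β7 on gut-homing lymphocytes, has 6 probes, of which 5 were above background in no channel and 1 in 1 channel of each tissue. Itgb2, the β2 chain of all leukocytes, was at -0.06 ± 0.08 (-0.19 and -0.04 in mouse 1, 0.04 and -0.06 in mouse 2). Itgal, its αL partner, was at 0.01 ± 0.08 (-0.10 to 0.11 on the arrays), and Itgax, the αX chain of dendritic cells, at -0.06 ± 0.09.

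Itgam, the αM chain of myeloid cells, has 2 probes, of which 1 was tested. The untested probe was well above background in 2 of 4 organoid channels. The tested probe was so in no organoid channel and in all 4 crypt channels. On the tested probe Itgam had a bound of 1.42-fold lower in organoids and did not pass the test (adjusted p = 0.112). Measured log2 intensities were 7.28 in organoids and 7.84 in crypts. The measured ratios were -0.50 and -0.09 on the arrays of mouse 1 and -0.87 and -0.79 on those of mouse 2, so mouse 1, at -0.29, lay short of the bound, which is a mean over the mice. Itgam was called at -2.06 with scanner-derived ratios (adjusted p = 0.0164) and at -2.07 with the deposited matrix (adjusted p = 0.0166), and under none of the other 8 alternatives that tested it. The bound sets the crypt mean against organoid values raised, on each array, to the weakest signal that any probe well above background had. Itgb3, the β3 chain of platelets and other cells, was at -0.25 in mouse 1 and 0.71 in mouse 2 and did not differ beyond that spread.

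Leukocyte marker genes moved with Itgae. Of 13 tested of 14 listed, 4 fell and none rose (30.8% called, beside 10.9% of all genes), and the median was -0.48. The chemokine gene Ccl5 was at -3.51 ± 0.14 and the granzyme gene Gzma at -2.80 ± 0.15. The T cell receptor component gene Cd3g and Cd52 were not well above background in any organoid channel. They had bounds of 2.00-fold and 1.62-fold lower in organoids, as means over the mice. On the log2 scale the bounds in mouse 1 and mouse 2 were 1.08 and 0.92 for Cd3g and 0.75 and 0.65 for Cd52. The test was on the measured ratios (adjusted p = 0.0119 and 0.0200). Cd3g had measured log2 intensities of 7.31 in organoids and 8.35 in crypts, and Cd52 of 7.08 in organoids and 7.92 in crypts. Ccl5 and Gzma kept their calls under every alternative tested, with Gzma at -5.75 with scanner-derived ratios and -5.72 with the deposited matrix. Cd3g and Cd52 lost theirs with mouse as a block (adjusted p 0.0752 and 0.0563), with median centring (0.217 and 0.304) and with the organoid in Cy3 alone (0.123 and 0.227, at -0.68 and -0.45). They were at -3.15 and -3.50 with scanner-derived ratios. The summed signal of the 13 was 3034 and 2974 in organoids, against 9548 and 7445 in crypts, on the linear intensity scale. Ccl5 and Gzma, the brightest of the 13 in crypts, were the main part of the crypt sums. Their log2 intensities in crypts of mouse 1 and mouse 2 were 12.33 and 11.68 for Ccl5 and 10.27 and 10.13 for Gzma. The sums therefore mostly follow these genes and not the list as a whole. Cd3e was at 0.08 ± 0.19. In such bulk RNA, fewer cells of a type and less RNA per cell cannot be told apart. The part of leukocytes in the Itgae and Itgb7 ratios was not tested.

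Integrins of stroma, muscle and other cells gave no call, and none of the 3 tested of 8 listed had an unadjusted p under 0.05. Itga1, a collagen receptor chain, was at -0.06 ± 0.05, Itga5, the fibronectin receptor chain, at -0.11 ± 0.01, and Itga7, the muscle laminin receptor chain, at 0.47 ± 0.50. Itga5 was well above background in 2 of 4 organoid channels. Of 12 stroma and muscle markers only 5 were tested, with a summed signal of 7901 and 7032 in organoids, against 11645 and 9327 in crypts. Acta2, the brightest of the 5 and so the main part of that sum, fell (-0.66 ± 0.01, adjusted p = 0.0363). The other 4 were not called, with Col1a2 at -0.005, Pdgfrb at 0.13, Vim at 0.21 and Tagln at -0.05. Acta2 lost its call under 6 of 11 alternatives, with -0.31 (adjusted p = 0.197) for the mean over probes and -0.37 (adjusted p = 0.818) with median centring. Of 7 endothelial markers 2 were tested and none passed. In all, 19 member names were untested, and for 11 of them no probe was well above background in any of the 8 channels.

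Other genes of adhesion and of the matrix were taken from lists, of which 5 are described. Of 18 tested of 24 linkers between integrins and actin, 1 rose and none fell (5.56% called, beside 10.9% of all genes). The list median was 0.02, and the gene that rose was Zyx, which encodes zyxin of focal adhesions, at 0.82 ± 0.07 (adjusted p = 0.0218). Talin, kindlin and integrin-linked kinase genes did not pass, with Tln1 at -0.17 ± 0.05, Tln2 at 0.99 ± 0.87 (0.38 in mouse 1 and 1.61 in mouse 2, adjusted p = 0.106), Fermt1 at 0.31 ± 0.10 and Ilk at -0.13 ± 0.16. Of 5 tested of 7 hemidesmosome partners, 40% were called, beside 10.9% of all genes, with a list median of -0.16. The tetraspanin gene Cd9 rose (1.40 ± 0.11, adjusted p = 0.00585) and Plec, which encodes the keratin linker plectin, fell (-0.84 ± 0.16, adjusted p = 0.0232). Dst, the second keratin linker there, was at -0.38 ± 0.20.

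Of 6 tested of 7 other laminin and collagen receptors, 1 rose (16.7% called, beside 10.9% of all genes), with a list median of 0.25. It was Sdc1, which encodes the heparan sulphate proteoglycan syndecan-1, at 0.86 ± 0.14 (adjusted p = 0.0215). Of 10 tested of 20 other matrix genes, Lgals3, which encodes the lectin galectin-3, fell (-2.97 ± 0.13, adjusted p = 0.00152) and none rose. That is 10% called, beside 10.9% of all genes, and the list median was -0.05.

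**Figure D4:**
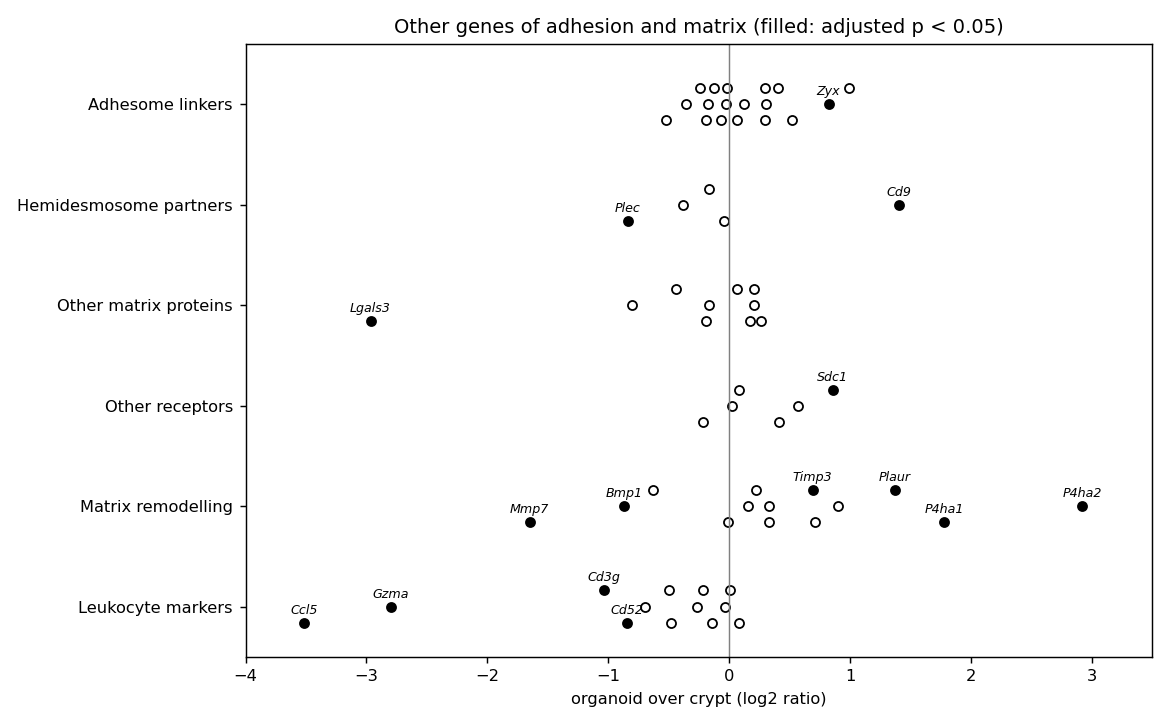
Organoid over crypt ratio (x axis, log2) of every tested gene of 5 lists of adhesion and matrix genes and of the leukocyte markers; filled points passed the test and are named, and the points of Cd3g and Cd52 are measured values where the organoid signal gives only a bound. Matrix remodelling has the most named genes, from Mmp7 at -1.65 to P4ha2 at 2.92, and the linkers between integrins and actin lie within 1 log2 unit of 0.

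Of 14 tested of 20 genes of basement membrane processing and turnover, 4 rose and 2 fell (42.9% called, beside 10.9% of all genes). The list median was 0.33. P4ha2 (2.92 ± 0.49) and P4ha1 (1.78 ± 0.10) encode alpha subunits of the prolyl hydroxylase that collagen needs to fold, Plaur (1.37 ± 0.21) the urokinase receptor and Timp3 (0.69 ± 0.20) a metalloproteinase inhibitor bound to the matrix. The matrix metalloproteinase gene Mmp7, which is also known from Paneth cells, fell (-1.65 ± 0.21), as did Bmp1 (-0.87 ± 0.02), a protease that trims procollagen and laminin chains. With scanner-derived ratios P4ha2 was at 4.63, P4ha1 at 2.82, Plaur at 2.27 and Timp3 at 1.34, and with the mean over probes Bmp1 was at -0.45 and not called.

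Of these 11 called genes of the 5 lists, Lgals3, P4ha1 and P4ha2 kept their calls under every alternative tested. The other 8 lost theirs with median centring. Zyx and Sdc1 also lost theirs with scanner-derived ratios, Zyx with the deposited matrix, Plec with mouse as a block, and Plec, Sdc1 and Timp3 without the filter on dim probes. With the organoid in Cy3 alone Plec (at -0.51), Timp3 and Bmp1 were not called.

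**Figure D5:**
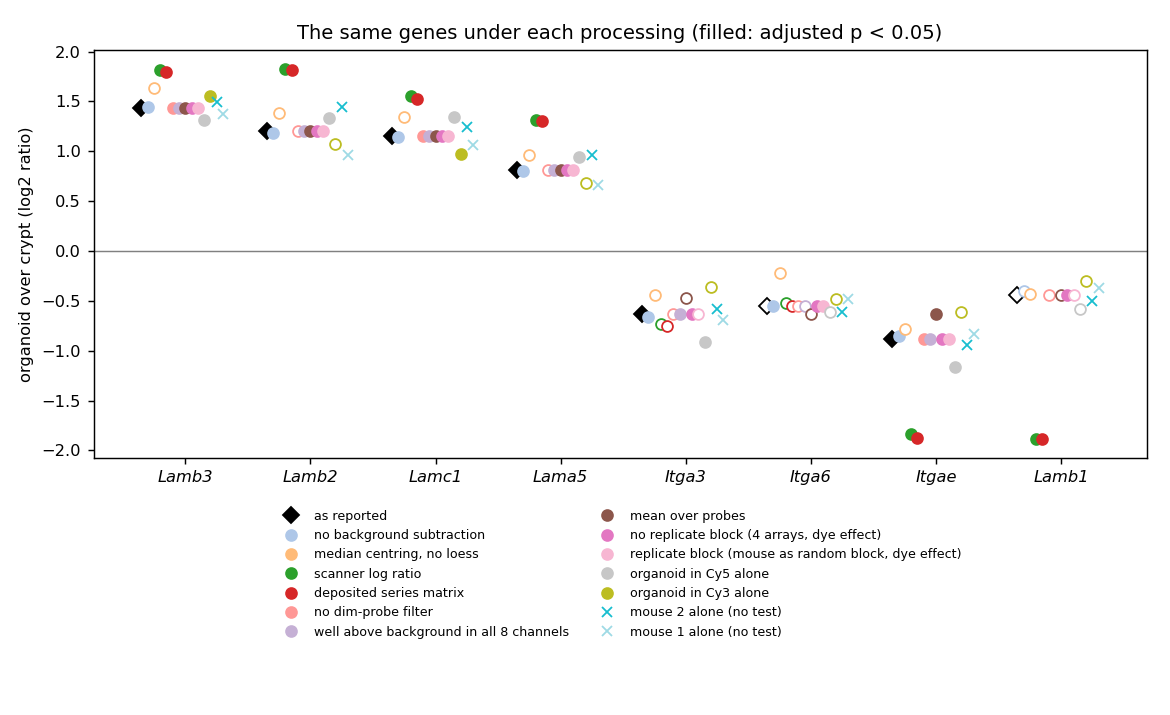
Organoid over crypt ratio (y axis, log2) of the 6 called members and of Itga6 and Lamb1 under each way of processing (colours), filled where the adjusted p was under 0.05; crosses are single mice, with no test. The signs do not change, median centring leaves every point open, and Itgae and Lamb1 reach -1.84 and -1.88 with scanner-derived ratios. Alternatives that change only the filter or the block keep the ratio, so the sign could not change there.

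The 6 called members kept their direction in both mice and under all 11 alternatives that gave a test. The alternatives that changed only the probe filter or the block kept the same ratios, so direction could not change there. The calls were themselves made on the means of the same mice, so the match between mice is no separate support. Lamb3 and Lamc1 were called under 10 of the 11, Itgae under 9, Lamb2 and Lama5 under 8 and Itga3 under 4. Such tallies include the fit that treats the 4 arrays as independent, which calls more genes. They also include each dye orientation alone, where a dye effect does not cancel. The ratios of the 6 ranged from 1.32 to 1.81 for Lamb3, 1.08 to 1.83 for Lamb2, 0.97 to 1.55 for Lamc1 and 0.68 to 1.31 for Lama5. For Itga3 they ranged from -0.91 to -0.36, and for Itgae from -1.87 to -0.61.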

How the data were processed

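RNA of organoids and crypts of 2 mice was hybridised on 4 Agilent 2-colour arrays of 1 slide, with dyes swapped within each mouse. Per the file headers, the deposited intensity columns give each spot's mean signal and its median local background in each dye, unlogged. A deposited log10 ratio, Cy5 over Cy3, was computed by the scanning software after its own background and dye correction. The authors' matrix holds log2 ratios of Cy5 over Cy3, with each column's median at 0 and r from 0.978 to 0.991 against the scanner ratios, and its centring step is not given in the sources used. The file headers name Agilent Feature Extraction 10.2.1.3 and the submitters' processing notes 9.5.3. The labels name Trizol and the design text another RNA kit.

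The analysis used limma 3.58.1 (R 4.3.3): normexp (offset 50), loess within arrays with 1639 control spots at weight 0, outlier-marked spots left out, spots of a probe averaged, ratios set to organoid over crypt from the labelled dyes, and the 2 arrays of a mouse averaged as 1 replicate. Levels were also quantile-normalised between arrays on average intensity. Testing was limited to probes without an outlier mark whose signal was well above background throughout the 4 channels of at least 1 tissue (21923 probes), and a gene was represented by its brightest tested probe (15538 genes). The means of the mice were tested two-sided against 0 (lmFit, eBayes), with Benjamini-Hochberg adjustment over all genes. Simulated organoid over crypt data of 15538 genes had 50 genes changed by each size. Of these, 4%, 14%, 82% and 96% were called at log2 changes of 0.5, 1, 1.5 and 2. At 0.5, 1 of the 2 called had the right sign. Fewer genes were changed there than the 1697 called in the data. The adjustment depends on that share, so the percentages may not carry over to the data. An uncalled gene may still have changed.

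Probe positions are mm9, per the files, with no mm9 gene annotation used here, so exon or UTR is not stated. Probes were named through RefSeq for GRCm38.p6 by accession where they matched (24844 of 41174), otherwise by the file; the 2 names this gave Col4a3bp are counted as 1. Members and lists were chosen with earlier results of these data known, and lists are described by counts and medians only. Some items, and 1 list, are not reported here. Values were given for every called member, the main epithelial chains and linkers, the main leukocyte chains and the called genes of each list. The replicate number is the mouse, per the labels; across genes, the 2 arrays of a mouse correlated with r = 0.837 and 0.850, and the means of the mice with r = 0.767. The alternatives tried were no background subtraction, median centring, the scanner and matrix ratios, no filter on dim probes, a filter on all 8 channels, the mean over probes, 4 arrays without or with the mouse as a block, each dye orientation, each mouse alone and, chosen after seeing the data, each other tested probe.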

Additional observations from a re-analysis of the deposited data

How the results depend on the processing

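Precision is limited by 2 mice and, for Lamb1, Itgam and the second Itgae probe, by organoid signals near background. Genes called over the whole array numbered 1697 as reported, 224 with median centring, 677 without the filter on dim probes, 908 with Cy3-labelled organoids alone and 3709 with no replicate block, which treats the 4 arrays as independent. Called members numbered 6 as reported. By limma they were 0 with median centring (8 at an unadjusted p under 0.05), 3 without that filter, 10 with the organoid in Cy5 alone, 2 with it in Cy3 alone and 13 with no replicate block. With the mouse as a replicate block (correlation 0.59, computed from the mean squares between and within mice since limma's duplicateCorrelation gave no estimate) there were 2006 genes and 8 members (6 higher, 2 lower): Itga3 lost its call, and 3 members gained one, among them Itga6 and Itgb3bp. Median centring moved the median of all genes by 0.14, to 0.17. Relative to it Lamb3 was at 1.47, Lamb2 at 1.22, Lamc1 at 1.18, Lama5 at 0.79, Itga3 at -0.61 and Itgae at -0.95. Signs turned for Itgav (0.060 with median centring, 0.039 with scanner-derived ratios, 0.019 with the deposited matrix, 0.033 in Cy3 alone) and for Lama3 (-0.17 with the mean over probes, -0.048 with the matrix, -0.019 with scanner-derived ratios, -0.012 without background subtraction, -0.011 in Cy3 alone). Dag1 was at 0.0066 and Itgb1 at 0.020 with median centring, and Col4a6 at -0.0084 without background subtraction. In Cy3 alone Dag1 was at 0.20, Col4a6 at -0.028, Col4a1 at -0.0072, Itga1 at 0.0087 and Itga5 at 0.00087. Other probes were at 0.11 for Col4a3bp, 0.0070 for Itgb1, -0.046 for Itgb6 and -0.37 for Lama3. Leaving out either mouse leaves no residual degree of freedom, so it gave values without a test. A slide or scan block was not run, since all 4 arrays shared 1 slide.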
